A study of Danio rerio with 6 samples.

Results

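The T-box genes considered here are 9 transcription factor genes known from the heart: tbx1, tbx2a, tbx2b, tbx3a, tbx3b, tbx5a, tbx5b, tbx18 and tbx20. They were chosen by name, as the rows of the deposited tables that carry exactly these symbols, and each symbol matched 1 of the 25281 genes listed. The set was drawn up with earlier results of these data known, so the number called among them is descriptive and not a test of the set. Counts were measured by RNA-seq in 6 libraries of cardiomyocytes sorted from the atrioventricular canal, the ring between atrium and ventricle, of adult zebrafish aged 4 to 8 months. There were 3 GFP-positive libraries (β-cat ON in the labels) and 3 GFP-negative libraries (β-cat OFF), and all fish of both groups carried the same 3 transgenes. Tg(UAS:EGFP) is the reporter, Tg(myl7:GAL4db-TCFΔC-2A-mCherry) makes the GAL4-TCF fusion through which β-catenin switches it on, and Tg(myl7:NLS-mCherry) marks nuclei. The myl7 promoter of the last pair is active in cardiomyocytes. The comparison asks how canal cardiomyocytes with and without this reporter signal differ. The labels name no treatment beyond the digestion with 3 mg/ml collagenase for 30 min that both groups shared.

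T-box factors bind DNA through a shared domain and act in the heart as activators, as repressors, or as both. In the mouse heart TBX5 activates genes of the working chambers, often together with NKX2-5 and GATA4, while TBX2 and TBX3 occupy the same kind of site in the canal and conduction system and repress those genes. TBX20 is needed in the chambers, where it keeps Tbx2 low, TBX18 is known from the epicardium and the sinus horns, and TBX1 from the pharynx and outflow tract. The zebrafish has a and b copies of tbx2, tbx3 and tbx5, and zebrafish tbx2b is needed for the canal to form.

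A few facts of the libraries bear on every value below. Total counts were 14783352 to 19750914 per library. GFP-negative libraries carry a sorted-fraction label (mCherry-negative, EGFP-positive) that conflicts with their titles, so their gate is not settled; groups follow the titles. Transcripts of the mitochondrial genome took 11.9% to 15.7% of GFP-negative and 35.6% to 44.9% of GFP-positive counts. Of 13490 genes tested, 0.0297% to 0.489% had no count in a GFP-negative library and 5.37% to 9.41% in a GFP-positive one. Nothing in the labels tells separate fish from repeat samples of 1 pool, so each p-value covers only the spread among these libraries, which may be technical. Since the RNA came from pools of sorted cells, fewer cells with a transcript and less transcript per cell cannot be told apart. Fewer reads of a low gene in GFP-positive libraries were common: of 4375 tested genes at 1 to 5 CPM in the GFP-negative group, 32.5% had no count in at least 1 GFP-positive library. CPM here means counts per 1000000 counts of a library after TMM scaling, which corrects for differences in composition.

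Of the 9 T-box genes, 1 rose in the GFP-positive libraries, none fell, 6 did not pass the test and 2, tbx1 and tbx3b, had too few counts to be tested. The gene that rose was tbx2b, 3.27-fold. The test was edgeR's quasi-likelihood F test with Benjamini-Hochberg adjustment over all 13490 genes, and a gene was called at an adjusted p under 0.05. By that rule 2.08% of all tested genes rose and 2.13% fell. In tbx3a and tbx5a the groups did not overlap either, tbx3a lying lower and tbx5a higher, but neither passed. Over all tested genes 17.6% were lower and 12.1% higher without overlap. At an unadjusted p under 0.05 there were 2 higher members and 1 lower one, where 9.11% of all tested genes were higher and 9.79% lower. DESeq2 called tbx2b alone, with 6.95% of all genes higher and 5.40% lower. limma-voom called tbx2b and tbx3a, with 2.18% and 3.77% of all genes. The 7 tested genes included tbx3a, which passed the expression filter through its GFP-negative libraries alone.

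**Figure D1:**
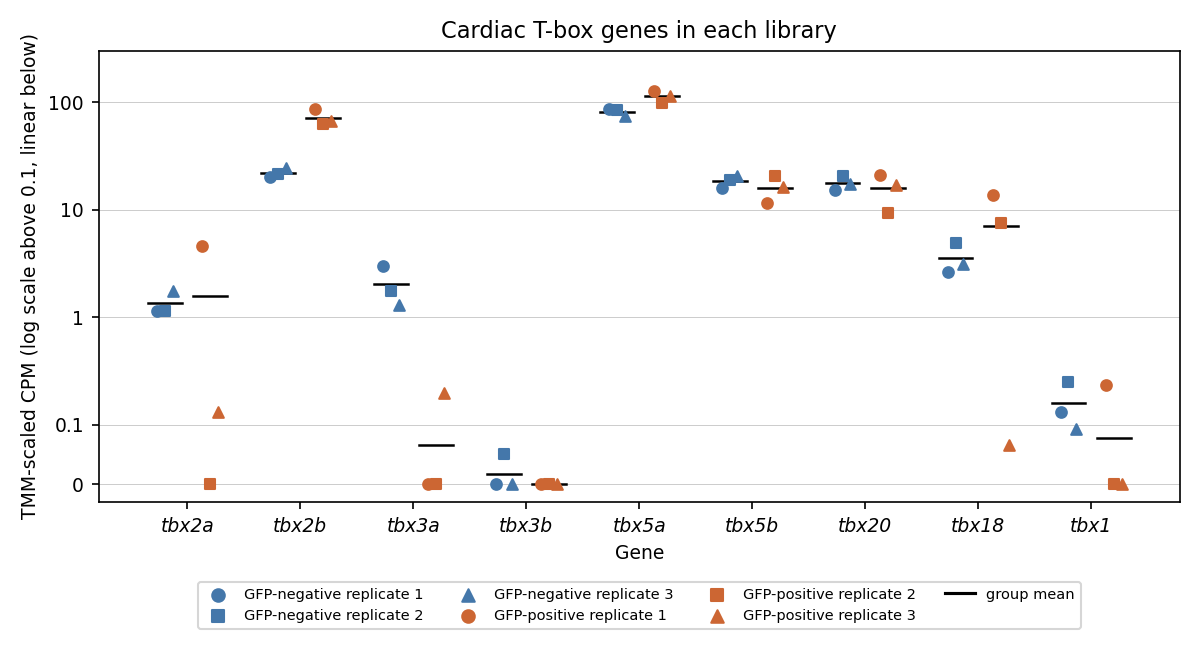
TMM-scaled CPM of the 9 T-box genes (x axis) in each library, on an axis that is logarithmic above 0.1 CPM and linear below; blue symbols are GFP-negative and orange symbols GFP-positive libraries, symbol shapes are replicate numbers and bars are group means. tbx2b lay at 62.3 to 86.4 CPM in GFP-positive and no higher than 24.3 CPM in GFP-negative libraries, while tbx3a had no count in 2 of the 3 GFP-positive libraries.

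Among the canal repressors, tbx2b (ENSDARG00000006120) had 305, 425 and 526 counts in the GFP-negative libraries, given here and below in the order of their replicate numbers, and 1114, 967 and 1022 counts in the GFP-positive ones. On the CPM scale these were 20.2, 21.3 and 24.3 against 86.4, 62.3 and 66.5. The lowest GFP-positive library was thus above the highest GFP-negative one, an arrangement that 12.1% of all tested genes shared in this direction. The log2 fold change was 1.71 ± 0.23 (SE; 95% interval 1.18 to 2.24, edgeR adjusted p = 0.0124). The call was lost when any 1 of the GFP-negative libraries was left out, with adjusted p = 0.0873, 0.0573 and 0.0785 without replicates 1, 2 and 3; the fold change then stayed between 1.67 and 1.77. Over all genes the number of calls also fell in those fits, from 568 to 51, 147 and 44. The coefficient of variation of tbx2b was 17.9% in the GFP-positive and 9.57% in the GFP-negative group, lower than the medians over all tested genes of 62.0% and 19.9%. Those medians are not matched to tbx2b in level. They take in 1265 genes under 1 CPM and 4375 at 1 to 5 CPM in the GFP-negative group.

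Its paralog tbx2a (ENSDARG00000018025) differed far more between GFP-positive libraries. It had 17, 23 and 38 counts in the GFP-negative libraries and 59, 0 and 2 in the GFP-positive ones. A single GFP-positive library, replicate 1, therefore held nearly all of the tbx2a counts of that group and lay above every GFP-negative library, while the other 2 lay below. The fitted log2 fold change was 0.21 ± 1.69 (SE, edgeR adjusted p = 0.979), with a 95% interval from -3.75 to 4.18 that covers large changes in both directions. Without GFP-positive replicate 1 it was -4.15 (adjusted p = 0.115). tbx2a supplied 5.13% to 6.74% of the summed tbx2a and tbx2b counts in GFP-negative libraries, and 5.03%, 0% and 0.195% in the GFP-positive ones. The exact 95% binomial interval of the tbx2b share was 93.6% to 96.1% in GFP-positive replicate 1 and 99.6% to 100% in replicate 2. The intervals of these replicates of the same group did not overlap. Reads were copied before sequencing without molecular identifiers, so such intervals and the floors below cover the counting of reads only. They can be too narrow for the molecules that were copied.

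tbx3a (ENSDARG00000002216), a gene of the canal and conduction system, showed the reverse arrangement of counts. It had 45, 35 and 28 counts in the GFP-negative libraries and 0, 0 and 3 in the GFP-positive ones. On the CPM scale the GFP-negative level was 2.01 ± 0.873 (SD, n = 3) and the only GFP-positive library with reads, replicate 3, stood at 0.195. A count of 0 allows up to 3 counts, or 0.233 and 0.193 CPM in GFP-positive replicates 1 and 2, so each of the 3 libraries lay below the lowest GFP-negative value of 1.29. Such a lower, non-overlapping arrangement was found for 17.6% of all tested genes. Summed over each group, the depth-scaled ratio of GFP-negative to GFP-positive counts was 27.8 (exact 95% counting interval 9.26 to 137). That interval leaves out the spread among libraries. The coefficient of variation in the GFP-negative group was 43.4%, where counting alone gives 16.7%. The fitted log2 fold change was -4.76 ± 1.48 (SE; 95% interval -8.22 to -1.30). The fitted difference did not pass the test (edgeR adjusted p = 0.128, and 0.0463 to 0.413 over the alternatives). It passed with limma-voom (adjusted p = 0.0472) and without GFP-positive replicate 3, the library that held the 3 counts (0.0463). No count in at least 2 GFP-positive libraries, as for tbx3a, was seen in 4.22% of all tested genes and in 8.73% of those at 1 to 5 CPM in the GFP-negative group. Its copy tbx3b (ENSDARG00000061509) had 1 count in all, in GFP-negative replicate 2; both groups were below the floor of 3 counts and no fold is given. In RefSeq tbx3b is also listed as an older symbol of tbx3a, and the symbols are used here as the deposited tables pair them with identifiers.

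Among the chamber activators, tbx5a (ENSDARG00000024894) had 1298, 1685 and 1595 counts in the GFP-negative and 1652, 1518 and 1755 in the GFP-positive libraries. These were 86.0, 84.5 and 73.6 CPM against 128, 97.8 and 114 CPM, with no overlap. That arrangement was found in this direction for 13.2% of tested genes at 20 to 100 CPM in the GFP-negative group. The difference was small beside that of tbx2b, with a log2 fold change of 0.48 ± 0.18 (SE; 95% interval 0.06 to 0.90), and did not pass after adjustment (edgeR adjusted p = 0.204, unadjusted p = 0.0315). Its size depended on the scaling, at 0.31 without a composition factor and 0.54 with DESeq2's size factors. tbx5a and tbx3a are next to each other in RefSeq's gene order of assembly GRCz12tu, with 0 protein-coding genes between them. One stood higher and the other lower in the GFP-positive libraries.

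tbx5b (ENSDARG00000092060) stood at 16, 18.9 and 20.3 CPM in the GFP-negative libraries. The GFP-positive libraries gave 11.5, 20.3 and 16.3 CPM. The groups overlapped, with GFP-positive replicate 1 lowest of all 6 and GFP-positive replicate 2 level with the highest GFP-negative one. The log2 fold change was -0.20 ± 0.34 (SE; 95% interval -0.98 to 0.59, edgeR adjusted p = 0.877), so a change of up to 1.51-fold upward or to 0.506 of the GFP-negative level lay within it. As a share of all tbx5 counts, tbx5b made up 15.7%, 18.2% and 21.6% in the GFP-negative and 8.22%, 17.2% and 12.5% in the GFP-positive libraries. The shares overlapped between groups, and GFP-positive replicate 1 (exact 95% interval 6.99% to 9.59%) was below each of the other 5.

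tbx20 (ENSDARG00000005150), the chamber factor that restrains Tbx2 in the mouse, gave 15.3, 20.5 and 17.3 CPM in the GFP-negative libraries, against 20.9, 9.28 and 17 CPM in the GFP-positive ones. The GFP-positive libraries held both the highest and the lowest value. The log2 fold change was -0.17 ± 0.39 (SE; 95% interval -1.08 to 0.73, edgeR adjusted p = 0.912). It was 0.15 without GFP-positive replicate 2, the lowest library (adjusted p = 0.820). A fall to 0.474 or a rise to 1.66 times the GFP-negative level lay within the interval.

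**Figure D2:**
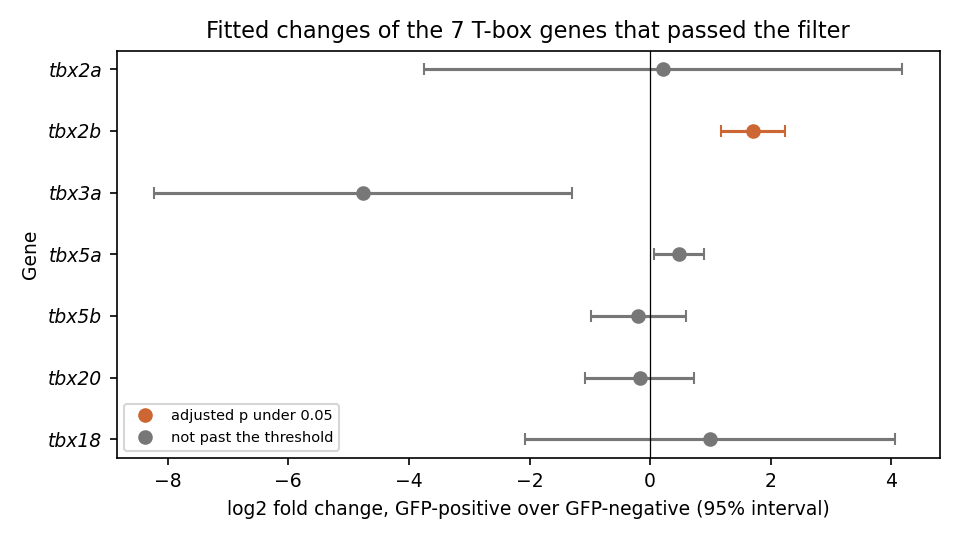
Fitted log2 fold changes, GFP-positive over GFP-negative (x axis), of the 7 T-box genes that passed the expression filter (y axis); points are estimates, bars 95% intervals, and orange marks an adjusted p under 0.05. tbx2b at 1.71 is the 1 gene past the threshold, and the interval of tbx2a spans -3.75 to 4.18.

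tbx18 and tbx1 are the members best known outside the working myocardium. tbx18 (ENSDARG00000036930) had 40, 98 and 67 counts in the GFP-negative and 175, 117 and 1 in the GFP-positive libraries. GFP-positive replicates 1 and 2, at 13.6 and 7.54 CPM, were above every GFP-negative library, and replicate 3, at 0.0651 CPM, below all. The fitted log2 fold change was 0.99 ± 1.31 (SE, edgeR adjusted p = 0.824) and moved with single libraries. Leaving out GFP-positive replicate 1 gave 0.08 (adjusted p = 0.981), and leaving out replicate 3 gave 1.56 (adjusted p = 0.0947). Other epicardial markers were higher in the same group: of 6 measured markers, tbx18 among them, 4 rose, and their summed level was 644 to 1123 CPM, against 153 to 203 CPM in GFP-negative libraries. The keratin genes krt94 and krt4 made up most of that sum, at 578 and 225 of a mean of 952 CPM in the GFP-positive group. Over all tested genes 2.08% rose by the same test. The number of epicardial calls was 1 without any 1 of the GFP-negative libraries or GFP-positive replicate 2, and 2 without GFP-positive replicate 1. aldh1a2, the retinoic acid synthesis enzyme of the epicardium, had 2123, 1964 and 1022 counts in the GFP-positive libraries, and tcf21, an epicardial transcription factor, 208, 516 and 285. Both were thus present in replicate 3, where tbx18 had 1 count and wt1b, another epicardial factor, none. The part of epicardial cells in the tbx18 values was not tested. tbx1 (ENSDARG00000031891) had 2, 5 and 2 counts in GFP-negative and 3, 0 and 0 in GFP-positive libraries. The summed ratio, GFP-positive over GFP-negative, was 0.432 with an exact 95% counting interval of 0.0752 to 1.73, so no difference was detectable at this depth.

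The sorted cells carried cardiomyocyte transcripts in both groups: 5 markers, of which 2 fell, summed to 31787 to 43944 CPM in the GFP-negative group and to 17708 to 22061 CPM in the other. Summed markers of several other cell types separated the same libraries as tbx2b, while those of macrophages and neurons overlapped. Beside the calls given for each list, 2.08% of all tested genes rose and 2.13% fell. Endocardial markers (6 genes, 1 rose) summed to 187 to 255 CPM in GFP-positive libraries, against 57.7 to 92.4 CPM in GFP-negative ones. In the same order, fibroblast markers (6 genes, 2 rose) summed to 371 to 570 against 80.4 to 194 CPM. Mural markers (6 genes, 2 of 5 tested rose) summed to 553 to 962 against 176 to 287 CPM. Nearly all of the mural sum was acta2, a smooth muscle actin gene that rose (699 ± 201 against 217 ± 58.5 CPM). tagln rose too, at 17.7 ± 9.44 against 1.56 ± 0.476 CPM (edgeR adjusted p = 0.0280), and myh11a overlapped, at 4.92 against 3.53 CPM. The pericyte genes notch3 and pdgfrb stood lower without overlap, at 3.82 against 11.3 and 0.624 against 1.30 CPM. Neither passed (edgeR adjusted p = 0.312 and 0.674). pdgfrb, with 10, 13 and 4 counts in GFP-positive libraries, needed its GFP-negative libraries to pass the expression filter. In the GFP-negative group notch3 lay at 5 to 20 and pdgfrb at 1 to 5 CPM. In those bands 13.9% and 15.2% of tested genes were lower without overlap. Erythrocyte markers (5 genes, 3 rose) summed to 1928 ± 456 against 556 ± 52.8 CPM (SD, n = 3 each). Macrophage markers (6 genes, 0 of 5 tested called) summed to 120 to 586 against 157 to 527 CPM, and neuronal markers (6 genes, 0 of 2 tested called) to 15.3 to 26.2 against 13.7 to 32.1 CPM. At an unadjusted p under 0.05 these last lists held 0 and 1 genes, and DESeq2 called the same numbers, limma-voom none. Most of the neuronal sum was syt1a, at 12.9 against 23.7 CPM with overlap. The neuronal gene elavl4 went the other way without overlap, at 6.11 against 0.641 CPM (edgeR adjusted p = 0.116). Of tested genes under 1 CPM in the GFP-negative group, 13.1% were higher without overlap. Leaving out 1 library took the endocardial calls to between 0 and 3, the fibroblast and mural calls to between 0 and 2, the erythrocyte calls to between 0 and 3, and the cardiomyocyte calls to 0 or 1. None of these lists had a marker at 0 in every library. The part of such cells, or of the mitochondrial share, in the tbx2b difference was not tested.

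A comparison of T-box genes within a library does not depend on how libraries are scaled. For this reason tbx2b was set against tbx3a, tbx5a and tbx20 as a ratio of counts in each library. Per count of tbx5a there were 0.235, 0.252 and 0.330 counts of tbx2b in the GFP-negative and 0.674, 0.637 and 0.582 in the GFP-positive libraries. Every GFP-positive ratio was above every GFP-negative one. The mean log2 ratio went from -1.89 ± 0.26 to -0.67 ± 0.11 (SD, n = 3 each), a difference of 1.22 or 2.34-fold. The two-sided exact permutation p was 0.10, the smallest that 3 against 3 libraries allows, and 0.10 adjusted over the 3 ratios.

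Against tbx20, the ratio was 1.32, 1.04 and 1.40 counts of tbx2b per count in the GFP-negative and 4.14, 6.72 and 3.90 in the GFP-positive libraries. The groups again did not overlap, and the mean log2 ratio differed by 1.94, or 3.83-fold (exact permutation p = 0.10, adjusted p = 0.10, n = 3 each). Against tbx3a, the GFP-negative libraries had 6.78, 12.1 and 18.8 counts of tbx2b per count, and GFP-positive replicate 3 had 341; the other 2 GFP-positive libraries had no tbx3a count to divide by. With 0.5 added to each count, the mean log2 ratio was 3.51 ± 0.73 in GFP-negative and 10.08 ± 1.64 in GFP-positive libraries (exact permutation p = 0.10, adjusted p = 0.10, n = 3 each). The size of that difference, 6.56, depended on the count added, at 5.85 with 1 and 8.16 with 0.1. On summed counts the ratio of tbx2b to tbx3a was 88.9 times higher in the GFP-positive group, with an exact 95% counting interval of 29.5 to 438. The design cannot reach an unadjusted p under 0.05 for any of these ratios. The 3 ratios share the tbx2b counts, which already separated the groups, so they are not independent of that difference or of each other. How many other genes would separate the groups in such a ratio was not counted.

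**Figure D3:**
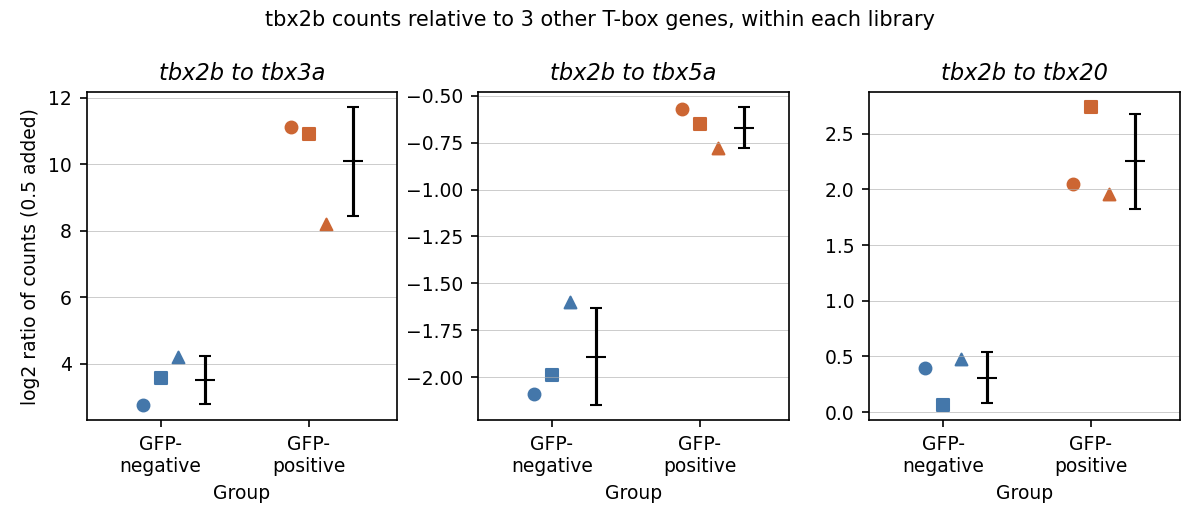
log2 ratio of tbx2b counts to the counts of tbx3a, tbx5a and tbx20 (panels; y axis, 0.5 added to each count) in GFP-negative and GFP-positive libraries (x axis); symbols are libraries, shaped by replicate number, and bars are mean ± SD of 3 libraries. The groups do not overlap in any panel, and the mean difference is 6.56, 1.22 and 1.94 from left to right.

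Taking all 9 genes as one pool, tbx2b held 14.0%, 13.9% and 17.1% of the T-box counts in the GFP-negative and 32.6%, 31.6% and 31.0% in the GFP-positive libraries. The GFP-positive shares lay within 2 percentage points of each other. tbx5a held 59.6%, 55.1% and 51.9% in GFP-negative and 48.3%, 49.6% and 53.2% in GFP-positive libraries, with overlap. tbx20 held 12.1 ± 1.40% and 6.84 ± 1.85%, and tbx5b 12.6 ± 1.65% and 7.41 ± 2.99% (SD, n = 3 each). Longer transcripts give more counts, and no transcript lengths were used, so these shares compare libraries and not one gene with another. The pool itself summed to 144, 153 and 142 CPM in GFP-negative and to 265, 197 and 214 CPM in GFP-positive libraries. Most of that difference in sum was carried by tbx2b and tbx5a, whose mean CPM were 21.9 and 81.3 against 71.7 and 113.

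**Figure D4:**
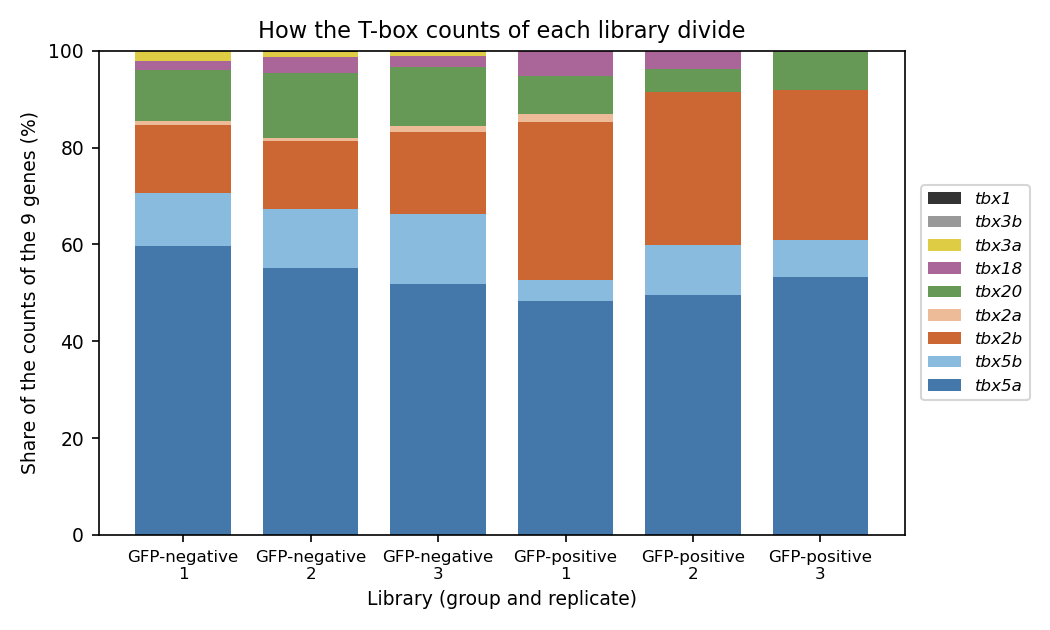
Share of the summed counts of the 9 T-box genes (y axis, percent) held by each gene in each library (x axis, group and replicate); colours are genes. The tbx2b segment takes 13.9% to 17.1% in GFP-negative and 31.0% to 32.6% in GFP-positive libraries.

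The rest of the T-box family had few counts in both groups. Of 15 other family genes with a row, 7 had fewer than 10 counts over all 6 libraries and 3 passed the filter, of which none was called by edgeR, DESeq2 or limma-voom. Their unadjusted edgeR p ran from 0.171 to 0.412, so 0 were under 0.05. tbx4, next to tbx2b in RefSeq's gene order with 0 protein-coding genes between, had 0, 1 and 1 counts in GFP-negative and 1, 0 and 5 in GFP-positive libraries. The neighbour thus had few counts in the same libraries in which tbx2b was high. mgaa, the zebrafish counterpart of a large factor that carries both a T-box and a bHLHZip domain, stood at 8.56 ± 1.41 and 4.57 ± 2.35 CPM (SD, n = 3; edgeR adjusted p = 0.536). tbx16, a mesoderm gene of the embryo, had 21 and 30 counts over the groups (adjusted p = 0.739). The genes named next, like tbx4, were picked out with their values in view. eomesb, a copy of the gene for Eomesodermin, had 30, 26 and 7 counts in GFP-negative and 2, 2 and 4 in GFP-positive libraries, and tbx6, known from somite formation, 7, 2 and 7 against 0, 0 and 0; neither passed the filter. In tbx15, tbr1a and eomesa a single GFP-positive library held most of the group's counts, with 63 in replicate 2, 67 in replicate 1 and 43 in replicate 2.

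Factors that bind T-box proteins showed no call. Of 9 measured, 7 were tested and 0 passed with edgeR, DESeq2 or limma-voom. The median log2 fold change was 0.04, against 0.01 over all tested genes. At an unadjusted edgeR p under 0.05, nkx2.5 alone was lower and none was higher, against 9.79% and 9.11% of all tested genes. nkx2.5, the homeobox partner of TBX5, stood at 300 ± 45.0 CPM (SD, n = 3) in the GFP-negative group against 192 ± 36.8 CPM, without overlap (log2 fold change -0.64 ± 0.20 SE, edgeR adjusted p = 0.130). gata5 stood at 107 ± 30.0 and 149 ± 13.1 CPM, also with no overlap and in the other direction (0.48 ± 0.23, adjusted p = 0.343). Among tested genes over 100 CPM in the GFP-negative group, as both are, 44.0% were lower and 12.0% higher without overlap. gata4, a partner of TBX5 and TBX20 named with its values in view, had 16, 20 and 26 counts in GFP-negative and 42, 1 and 1 in GFP-positive libraries. That is the arrangement seen for tbx2a, with 1 high and 2 near-empty GFP-positive libraries, and the same library, replicate 1, was the high one.

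Of 11 genes that regulate T-box genes in the canal, 6 were tested, 1 rose and 1 fell, against 2.08% and 2.13% of all tested genes. Their median log2 fold change was 0.53, against 0.01 over all tested genes. The list mixes activators and repressors of T-box genes, so this median has no single direction of effect on them. It rests in part on notch1b (0.69 ± 1.34 SE), which had 7, 4 and 95 counts in the GFP-positive libraries. limma-voom also called 1 higher and 1 lower, against 2.18% and 3.77% of all genes. DESeq2 called 2 higher and 1 lower, against 6.95% and 5.40%. smad9, a transducer of BMP signals, the signals that switch on Tbx2 in the mouse canal, rose from 36.8 ± 7.91 to 106 ± 6.66 CPM (1.53 ± 0.22 SE, edgeR adjusted p = 0.0167). Its call was lost without any 1 of the GFP-negative libraries or without GFP-positive replicate 2 (adjusted p = 0.0622 to 0.0813 in these fits). hey2, which holds Tbx2 out of the chambers in the mouse, fell from 53.9 ± 5.45 to 21.5 ± 5.50 CPM (-1.33 ± 0.27 SE, adjusted p = 0.0416). The hey2 call was lost with DESeq2's size factors (adjusted p = 0.0524), with mitochondrially encoded genes removed (0.0509) and without each library but GFP-positive replicate 3 (0.0705 to 0.230). The BMP ligand gene bmp4, also named with its values in view, stood at 5.13 ± 1.14 and 14.9 ± 3.40 CPM without overlap, as 12.1% of all tested genes did in this direction. It was not called by edgeR (adjusted p = 0.104) but was by DESeq2 (adjusted p = 0.00736). The other BMP transducer genes, smad1 and smad5, overlapped and were not called (edgeR adjusted p = 0.668 and 0.585). smad1 stood at 7.41 ± 1.89 and 3.96 ± 2.87 CPM, and smad5 at 24.1 ± 3.61 and 31.3 ± 6.22 CPM. foxn4, an activator of tbx2b in the zebrafish embryo, had 29 counts in the GFP-negative group and 9 in the other, and was not tested.

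Of 14 genes known as targets of TBX2, TBX3 or TBX5, mostly from mouse work, all 14 were tested, 1 rose and none fell. Their median log2 fold change was -0.50, against 0.01 over all tested genes, of which 2.08% rose and 2.13% fell. The 5 cardiomyocyte markers, of which nppa and ryr2b are also in this list, had a similar median of -0.53. At an unadjusted p under 0.05 there were 4 higher and 3 lower targets, against 9.11% and 9.79% of all genes. DESeq2 called 4 higher and 1 lower, against 6.95% and 5.40%, and limma-voom 2 higher and 0 lower, against 2.18% and 3.77%. has2, a hyaluronan synthase gene of the canal's cushions, had 6, 20 and 3 counts in GFP-negative and 273, 175 and 286 in GFP-positive libraries (5.03 ± 0.83 SE, edgeR adjusted p = 0.0259). It passed the expression filter through its GFP-positive libraries alone. The log2 fold change was 5.97 without GFP-negative replicate 2, which held most of that group's counts, and 4.56 without GFP-negative replicate 3. Its call was lost without GFP-negative replicate 1 or 3 or GFP-positive replicate 1 or 2 (adjusted p = 0.0636 to 0.157). The endocardium, which also makes has2, had markers at a higher summed level in the same libraries, as given above, and their part in the has2 values was not tested. Without overlap and without passing, 5 targets stood lower and 3 stood higher beside has2. Over all tested genes 17.6% were lower and 12.1% higher in this way. The lower share depended on the GFP-negative level: 44.0% over 100 CPM, 23.0% at 20 to 100, 13.9% at 5 to 20 and 15.2% at 1 to 5 CPM. tgfb2, among the lower ones, had 55, 59 and 47 counts in GFP-negative and 18, 17 and 0 in GFP-positive libraries. It therefore needed its GFP-negative libraries to pass the expression filter. Of the 5 lower targets, atp2a2a lay over 100 CPM, gja5a and gja5b at 20 to 100, scn5lab at 5 to 20 and tgfb2 at 1 to 5 CPM. Among them, again named with their values in view, the atrial-type connexin genes gja5a and gja5b, which TBX2 and TBX3 repress and TBX5 activates in the mouse, stood at 29.8 ± 9.02 and 24.0 ± 1.71 CPM in the GFP-positive group, against 55.3 ± 4.52 and 45.4 ± 9.74 CPM (adjusted p = 0.129 and 0.0870). DESeq2 called gja5b (adjusted p = 0.0305) but not gja5a (adjusted p = 0.0624). nppa, the natriuretic peptide gene that answers to the same T-box factors, stood at 3874 ± 543 and 3318 ± 417 CPM, with overlap (edgeR adjusted p = 0.601). Of the 5 cardiomyocyte markers, nppa among them, myl7 and tnnt2a fell 1.97-fold and 2.04-fold and 3 were not called. gja5a and gja5b stood 1.86-fold and 1.89-fold lower. The part of a lower share of cardiomyocyte transcripts in the gja5a, gja5b, nkx2.5 and hey2 values was not tested. id2a and id2b, copies of a TBX5 target gene, stood higher at 69.1 ± 5.92 against 120 ± 11.8 and 80.6 ± 38.6 against 298 ± 170 CPM (edgeR adjusted p = 0.0502 and 0.110), and DESeq2 called both (adjusted p = 6.22e-04 and 0.00194). mycn, a cell growth gene that TBX2 touches in the mouse, stood at 3.71 ± 0.957 and 16 ± 12.0 CPM (edgeR adjusted p = 0.116). Its GFP-positive libraries gave 8.06, 10.2 and 29.8 CPM, so that mean rested largely on replicate 3. Of 16 alternatives, 1 called mycn.

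**Figure D5:**
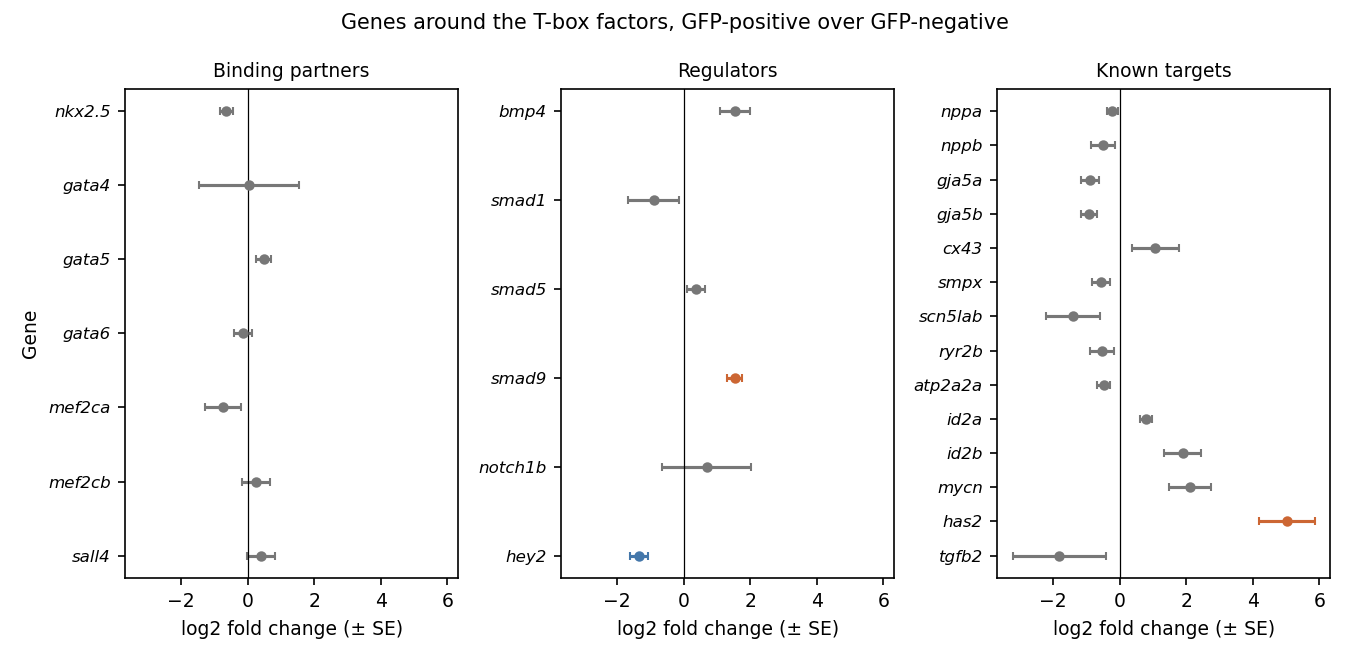
log2 fold changes ± SE, GFP-positive over GFP-negative (x axis), of tested genes (y axis) in the 3 lists of T-box binding partners, regulators of canal T-box genes and known T-box targets; orange marks genes that rose, blue genes that fell and grey genes not past the threshold. smad9 (1.53) and has2 (5.03) rose and hey2 (-1.33) fell.

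Over 5850 other tested genes whose mean reached 10 CPM, the 3 whose log2 CPM followed tbx2b most closely over the 6 libraries were ccnd1, wasf3b and comp, with Pearson r = 0.9988, 0.9986 and 0.9969. The cyclin D1 gene ccnd1 gave 8.48, 9.53 and 10.2 CPM in the GFP-negative libraries, against 41.5, 29.1 and 33.4 CPM in the GFP-positive ones. These r rest largely on the difference between the groups, and 136 genes had an r over 0.95. For tbx20 the 3 closest were zdhhc8b, smc3 and upf1, at r = 0.9833, 0.9715 and 0.9700, with 15 genes over 0.95. All 3 shared the low value of GFP-positive replicate 2. There smc3, a cohesin subunit gene, stood at 4.83 CPM, against 12.9 to 24.6 CPM in the other 5 libraries. tbx20 itself was lowest in that library, at 9.28 CPM, so the shared low value follows largely from choosing genes by likeness.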

How the data were processed

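RNA was sequenced from 6 libraries of sorted cardiomyocytes made with SMART-Seq v4 and a directional NEBNext kit, per the labels' protocols. Each library came with a table of total counts by gene, deposited by the authors as whole numbers without normalization, per the file headers. For aligner, counting rules, strand, genome build and annotation the entry is "not given in the sources used here". No coordinates are therefore printed, and reads of close copies such as tbx2a and tbx2b are uncertain as far as the counting could share them. No sequence table was used here.

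Counts of all genes were fitted with edgeR 4.0.16 in R 4.3.3 (filterByExpr with a minimum count of 10, TMM, robust quasi-likelihood F test, group as the only term), giving 13490 tested genes; p-values were adjusted by Benjamini-Hochberg with 0.05 as the threshold. The SE is the fold change divided by the root of F, and 95% intervals use the fit's degrees of freedom. Ratios within a library, with 0.5 added to each count, were compared by exact two-sided permutation. Count ratios and shares have exact (conditional or Clopper-Pearson) 95% intervals. The floor of a count of 0 is 3 counts. Likeness is Pearson's r of log2 CPM with a prior count of 2.

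DESeq2 1.42.0, limma 3.58.1 (voom), other scalings and filters, a replicate block and leaving out each library were alternatives. Lists were written from general knowledge and matched by symbol or older symbol. The members and lists were chosen with earlier results of these data known. Named by rule were all 9 members and the 3 most alike genes of tbx2b and tbx20. Of each T-box list up to 4 called genes were named, or the 2 with the smallest adjusted p where none was called. Other genes of these lists, such as nppa, id2a, id2b, mycn, smad1, smad5 and foxn4, were named with their values in view. So were wt1b, notch3, pdgfrb and myh11a among the cell type markers.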

Additional observations from a re-analysis of the deposited data

How the results depend on the processing

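tbx2b kept its direction and its call in all 10 alternatives that used every library, at 1.52 to 1.77 on the log2 scale, and ranged from 1.61 to 1.85 with 1 library left out. The number of T-box genes called was 2 with limma-voom, tbx3a being the other, and 0 to 2 with 1 library left out. Calls over all genes numbered 1667 with DESeq2 against 568, and 44 to 1018 with 1 library left out; the cause was not tested. They were 258 higher and 450 lower with upper-quartile factors and 196 and 507 without a composition factor, against 280 and 288, and the all-gene median, on the log2 scale, moved from 0.01 to -0.11 and -0.16. tbx2a changed sign without a composition factor (-0.07), with limma-voom (-2.25) and with the replicate block (-2.64), and ranged from -4.15 to 0.79 with 1 library left out. tbx18 changed sign with limma-voom (-0.80) and the replicate block (-0.06), and ranged from 0.08 to 1.56 with 1 library left out. With 1 library left out, tbx5b ranged from -0.33 to 0.04 and tbx20 from -0.35 to 0.15. On the log2 scale tbx3a and tbx5a kept their directions in all 16 alternatives. The differences of the 3 ratios of tbx2b kept their direction in all alternatives run; the sign-flip test over replicate numbers gave p = 0.25, the smallest that 3 pairs allow (exact). The replicate numbers were not taken as pairs: deviations from the group means correlated at 0.131, 0.185 and 0.0946 for numbers 1, 2 and 3, each library correlating best with its own number, a hint from the data and not the design. The replicate block moved the calls over all genes to 572 and left tbx2b called (adjusted p = 0.0177); id2b was called under it (1.83, adjusted p = 0.00317). tbx1, with 9 and 3 counts over the groups, and tbx3b, with 1 and 0, had too few counts for a test.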
